A study of Mus musculus with 8 samples.

Results

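Notch receptors and their canonical ligands were followed in mouse ES cells before and after retinoic acid (RA). The set comprises the 4 receptors *Notch1*, *Notch2*, *Notch3* and *Notch4* and the 5 ligands *Dll1*, *Dll3*, *Dll4*, *Jag1* and *Jag2*, taken as all non-control probes that carry one of these gene names in the scanner output. These are 9 of the 36406 gene names on the array, and 12 of its 55681 probes. *Notch1*, *Notch2* and *Dll3* each have 2 probes, *Dll1* has 1 probe printed at 10 spots, and the other 5 genes have 1 probe at 1 spot each.

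RNA came from E14Tg2A.4, a line of mouse embryonic stem cells, in 2 conditions with 4 biological replicates each. Untreated cells were compared with cells that had received 1 µM all-trans RA for 72 h in medium without leukemia inhibitory factor (LIF), the cytokine that keeps ES cells self-renewing. Adding RA and withdrawing LIF therefore cannot be told apart in this design. Each RNA was labelled with Cy3 and hybridized to a 1-colour Agilent mouse expression array, whose spots shine the brighter the more of a transcript the bulk culture held.

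Notch proteins are receptors at the cell surface that are activated by Delta-like or Jagged ligands on a neighbouring cell. Ligand binding exposes the receptor to cleavage by an ADAM protease and then by the gamma-secretase complex, and the released intracellular domain enters the nucleus, where it acts with the DNA-binding protein *Rbpj* and Mastermind-like co-activators on target genes such as the Hes and Hey repressors. In the embryo the pathway is known for holding back neuronal differentiation among neighbouring progenitors, for the segmentation of the presomitic mesoderm and for the development of vessels.

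The probes are 60-base oligonucleotides. A probe each of *Notch1*, *Notch2* and *Dll3* is shown, because each of these genes was read by 2 probes and the results compare the pair. The probe is named first, and positions are on mm9 as the scanner output gives them. The *Notch1* probe (minus strand, chr2:26319440-26319499) is the brighter one of its gene, the *Notch2* probe (plus strand, chr3:97951233-97951292) and the *Dll3* probe (minus strand, chr7:29079061-29079120) are the dimmer ones.
Notch1 A_55_P2171897: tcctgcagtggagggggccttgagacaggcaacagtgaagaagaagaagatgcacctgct
Notch2 A_55_P1982793: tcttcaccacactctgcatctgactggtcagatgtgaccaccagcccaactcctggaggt
Dll3 A_55_P2045208: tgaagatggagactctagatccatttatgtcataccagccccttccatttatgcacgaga

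Values are log2 intensities relative to the 75th percentile of their own array, so that 0 is the brightness below which 75% of the array's spots lie. A gene was called when its change passed an adjusted p of 0.05 in limma, with Benjamini-Hochberg adjustment over all 55681 probes, together with a fold change above 1.5. Where a gene has several probes, the brightest over the 8 arrays stands for it. The share of spots well above background ran from 56.7% to 62.7% per array, with no saturated spot. Each of the 2 slides carried 2 untreated and 2 RA arrays. The markers of the labelled cell type fitted the untreated arrays, as all 8 ES cell markers (such as *Pou5f1* and *Esrrb*) were well above background there, and all 8 were lower after RA. A second bright probe of *Nanog* went the other way, with a change of 0.52 that was not called. *Pou5f1* fell by 5.54 on the log2 scale (SE 0.61, limma adjusted p = 0.000152). The RA receptor gene *Rarb*, itself a known RA target, was higher by 7.21 (SE 0.40, limma adjusted p = 5.31e-06). The median change of all gene names was -0.28 on this scale.

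After RA, 7 of the 9 Notch genes were called. *Notch2* and *Notch3* rose 2.14-fold and 1.92-fold, while *Notch1*, *Notch4*, *Dll1*, *Dll3* and *Jag1* fell between 2.80-fold and 4.28-fold. *Dll4* and *Jag2* were not called. Of all gene names 13.9% were called higher, 22.1% lower and 36.1% in either direction. By probe, 9 of the 12 Notch probes were called, and of all probes 12.9% were called higher, 21.6% lower and 34.6% in either direction. The excess of lower calls over all probes (7196 higher and 12044 lower) depends on the scaling, as there were 8152 and 8704 with quantile normalization and 6275 and 6583 on the authors' processed values. The 7 called genes were also those whose conditions did not overlap, as was so for 40.5% of all gene names, 15.3% with RA above and 25.3% with RA below. Among gene names well above background on at least 1 array, as all 9 Notch genes were, 18.3% were called higher, 27.9% lower and 46.1% in either direction, so changes of this kind were common across the array. The median change of the 9 genes was -1.49. In bulk RNA, fewer cells of a type and less RNA per cell cannot be told apart. All 8 arrays gave a signal well above background for 8 of the 9 genes, and *Dll4* is the exception.

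**Figure D1:**
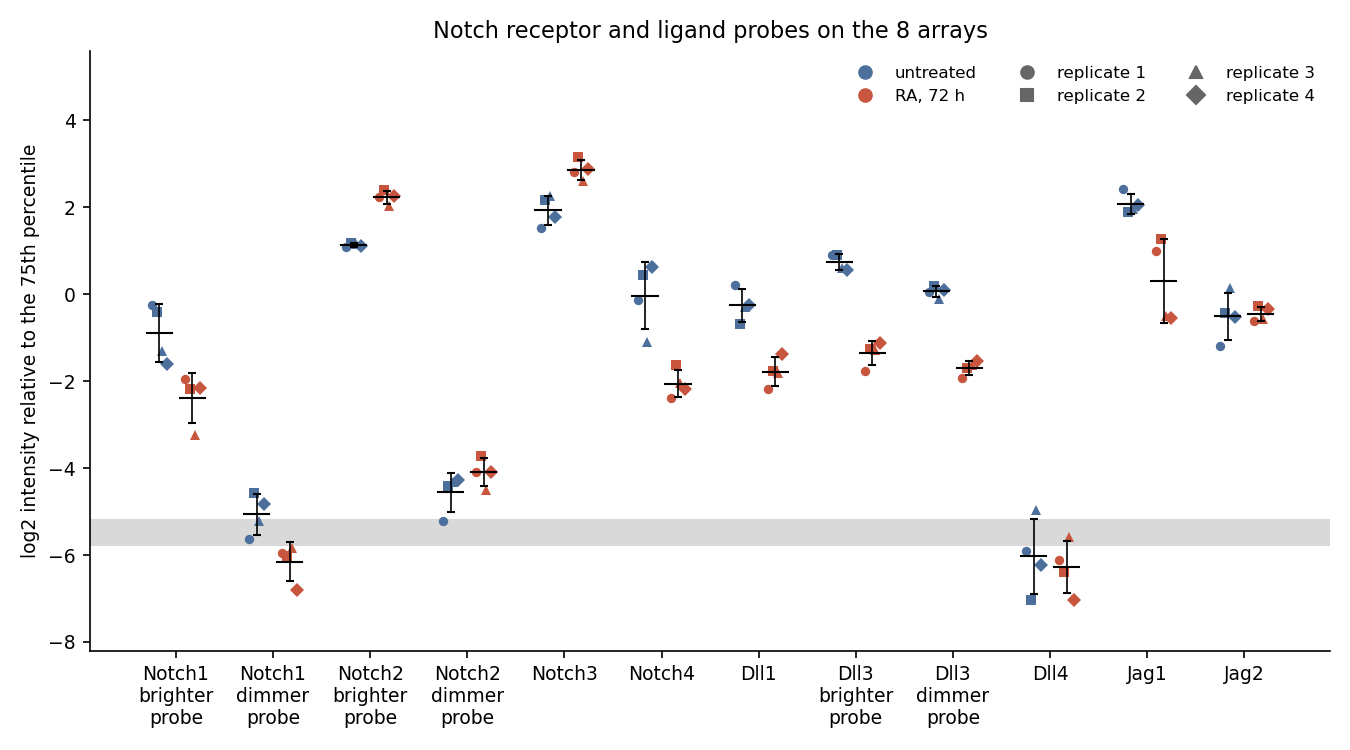
Log2 intensity, scaled to an array's 75th percentile (y axis), for the 12 probes of the 9 Notch genes (x axis), with a point per array, the replicate number as its shape, horizontal lines for the means and bars for the SD (n = 4 per condition). The grey band spans, over the 8 arrays, the dimmest signal that still counted as well above background. RA arrays lie above all untreated arrays for *Notch3* and the brighter *Notch2* probe, and below them for *Notch1*, *Notch4*, *Dll1*, *Dll3* and *Jag1*, while *Dll4* stays around the grey band.

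Receptors moved in both directions. *Notch1*, the receptor best known for keeping neural progenitors undifferentiated, read -0.24, -0.41, -1.32 and -1.61 in untreated replicates 1 to 4. After RA the same probe read -1.95, -2.19, -3.23 and -2.15. The conditions did not overlap, but the untreated arrays spread widely, with replicates 3 and 4 more than 0.9 below replicates 1 and 2. Its mean went from -0.90 ± 0.67 to -2.38 ± 0.58 (SD, n = 4 each), a change of -1.49 (SE 0.39, 95% interval -2.36 to -0.61, limma adjusted p = 0.0148), or 2.80-fold lower. The dimmer *Notch1* probe (chr2:26314630-26314689, minus strand, mm9) was well above background on 3 untreated arrays and on 0 RA arrays. It gave only a bound, at least 1.55-fold lower after RA (fitted change -1.09, limma adjusted p = 0.017), which sets the untreated mean against the mean over the RA arrays of the higher of 2 values, the dimmest signal that still counted as well above background and the signal of the probe itself. That call was lost under 4 other scalings or background corrections.

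*Notch2*, a receptor with roles in many tissues including kidney and bile duct, rose in a narrow range. The brighter probe (chr3:97953914-97953973, plus strand, mm9) read 1.08, 1.18, 1.15 and 1.11 in untreated replicates 1 to 4. In RA replicates 1 to 4 it read 2.23, 2.41, 2.04 and 2.25. Every RA array lay above every untreated array, with a gap far wider than the spread within a condition. The mean went from 1.13 ± 0.04 to 2.23 ± 0.15 (SD, n = 4 each), a change of 1.10 (SE 0.13, 95% interval 0.80 to 1.40, limma adjusted p = 0.000248), or 2.14-fold higher. In intensity units before scaling, it went from between 1595 and 2279 to between 3984 and 5480. The dimmer *Notch2* probe, whose sequence is printed above, read -5.22, -4.41, -4.31 and -4.27 before and -4.09, -3.72, -4.50 and -4.08 after RA. Its conditions overlapped, and its change of 0.45 (SE 0.26, 95% interval -0.13 to 1.04) was not called (limma adjusted p = 0.197). This probe was well above background on 3 of 4 untreated arrays, with intensities between 20.8 and 72.4 over the 8 arrays.

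*Notch3*, the receptor known from vascular smooth muscle, was the other receptor that rose. It read 1.53, 2.16, 2.25 and 1.77 in the untreated replicates. The RA replicates read 2.82, 3.17, 2.61 and 2.88. The lowest RA array lay above the highest untreated array by less than the range of the untreated arrays. The *Notch3* mean went from 1.93 ± 0.34 to 2.87 ± 0.23 (SD, n = 4 each), a change of 0.94 (SE 0.21, 95% interval 0.47 to 1.41, limma adjusted p = 0.00639), or 1.92-fold higher. The probe lies at chr17:32257848-32257907 (minus strand, mm9).

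*Notch4*, a receptor known mainly from endothelium, was the other receptor that fell. Untreated replicates 1 to 4 read -0.14, 0.45, -1.09 and 0.63, and RA replicates read -2.38, -1.63, -2.05 and -2.17. The conditions did not overlap, and the untreated arrays were the more variable ones, with replicate 3 lowest. The mean went from -0.04 ± 0.77 to -2.06 ± 0.32 (SD, n = 4 each), a change of -2.02 (SE 0.37, 95% interval -2.85 to -1.19, limma adjusted p = 0.00234), or 4.06-fold lower. Its probe is at chr17:34725120-34725179 (plus strand, mm9).

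Of the 3 Delta-like ligands, *Dll1* and *Dll3* fell and *Dll4* was at the limit of detection. *Dll1*, an activating ligand expressed by differentiating neurons and presomitic mesoderm, read 0.22, -0.69, -0.30 and -0.24 in the untreated replicates. After RA it read -2.17, -1.77, -1.81 and -1.37. All RA arrays were below all untreated arrays. The *Dll1* mean went from -0.25 ± 0.38 to -1.78 ± 0.33 (SD, n = 4 each), a change of -1.53 (SE 0.24, 95% interval -2.07 to -0.99, limma adjusted p = 0.000998), or 2.88-fold lower. The *Dll1* probe (chr17:15504623-15504682, minus strand, mm9) is printed at 10 spots, and these spots had an SD between 0.06 and 0.08 within an array, several times less than the SD between arrays of a condition. The spots of an array are repeat readings of a single RNA and were averaged before the test.

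*Dll3*, a divergent ligand that is thought to block Notch signalling from within its own cell, fell on both of its probes. Its brighter probe (chr7:29078763-29078822, minus strand, mm9) read 0.90, 0.90, 0.61 and 0.57 in the untreated replicates. It read -1.77, -1.25, -1.28 and -1.12 after RA. The conditions were separated by more than 1.6. The mean went from 0.74 ± 0.18 to -1.35 ± 0.29 (SD, n = 4 each), a change of -2.10 (SE 0.18, 95% interval -2.51 to -1.68, limma adjusted p = 4.12e-05), or 4.28-fold lower. The dimmer *Dll3* probe, whose sequence is printed above, read 0.05, 0.19, -0.10 and 0.11 before and -1.93, -1.69, -1.64 and -1.54 after RA. It too separated the conditions, and changed by -1.76 (SE 0.15, limma adjusted p = 3.2e-05), or 3.39-fold lower. The order of *Dll3* and *Notch4* is not settled, since *Notch4* changed by -2.37 and *Dll3* by -2.14 without untreated replicate 3.

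*Dll4*, the ligand known from sprouting vessels, was well above background on 1 array of each condition. It read -5.90, -7.04, -4.96 and -6.22 in the untreated replicates and -6.12, -6.40, -5.58 and -7.03 after RA. These values overlapped fully and corresponded to intensities between 6.53 and 32.9. The change of -0.25 (SE 0.45, 95% interval -1.28 to 0.77) was not called (limma adjusted p = 0.662), and a change of *Dll4* was not detectable at this signal. The probe is at chr2:119160779-119160838 (plus strand, mm9).

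The Jagged ligands differed from each other. *Jag1*, an activating ligand with known roles in heart, vessel and inner ear development, read 2.42, 1.89, 1.97 and 2.05 in untreated replicates 1 to 4. After RA it read 1.00, 1.27, -0.51 and -0.55. All RA arrays were below all untreated arrays, but they split into replicates 1 and 2 and, at least 1.5 lower, replicates 3 and 4. This split does not follow the slides, since RA replicates 1 and 4 shared a slide and replicates 2 and 3 the other. The *Jag1* mean went from 2.08 ± 0.23 to 0.30 ± 0.97 (SD, n = 4 each), a change of -1.78 (SE 0.43, 95% interval -2.76 to -0.81, limma adjusted p = 0.0102), or 3.44-fold lower. The *Jag1* probe is at chr2:136907433-136907492 (minus strand, mm9).

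*Jag2*, the other Jagged ligand, known from limb, palate and thymus, read -1.20, -0.44, 0.13 and -0.53 before and -0.62, -0.28, -0.57 and -0.34 after RA. The conditions overlapped, and all RA arrays lay inside the range of the untreated arrays. The change of 0.06 (SE 0.26, 95% interval -0.54 to 0.66) was not called (limma adjusted p = 0.873), and the interval reaches past a 1.5-fold rise while it just stops short of a 1.5-fold fall. Its probe is at chr12:114146887-114146946 (minus strand, mm9).

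Within each slide the called genes kept their direction. The difference between the RA and untreated means on slide 1 and slide 2 was 1.12 and 1.08 for *Notch2*, and 0.96 and 0.92 for *Notch3*. It was -1.27 and -1.70 for *Notch1*, and -1.66 and -2.38 for *Notch4*. Among the ligands it was -1.73 and -1.32 for *Dll1*, -2.20 and -2.0 for *Dll3*, and -1.97 and -1.60 for *Jag1*. Only *Dll4* went opposite ways on the slides among the 9 genes, with -1.14 and 0.64. Each of these values rests on 2 arrays per condition.

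**Figure D2:**
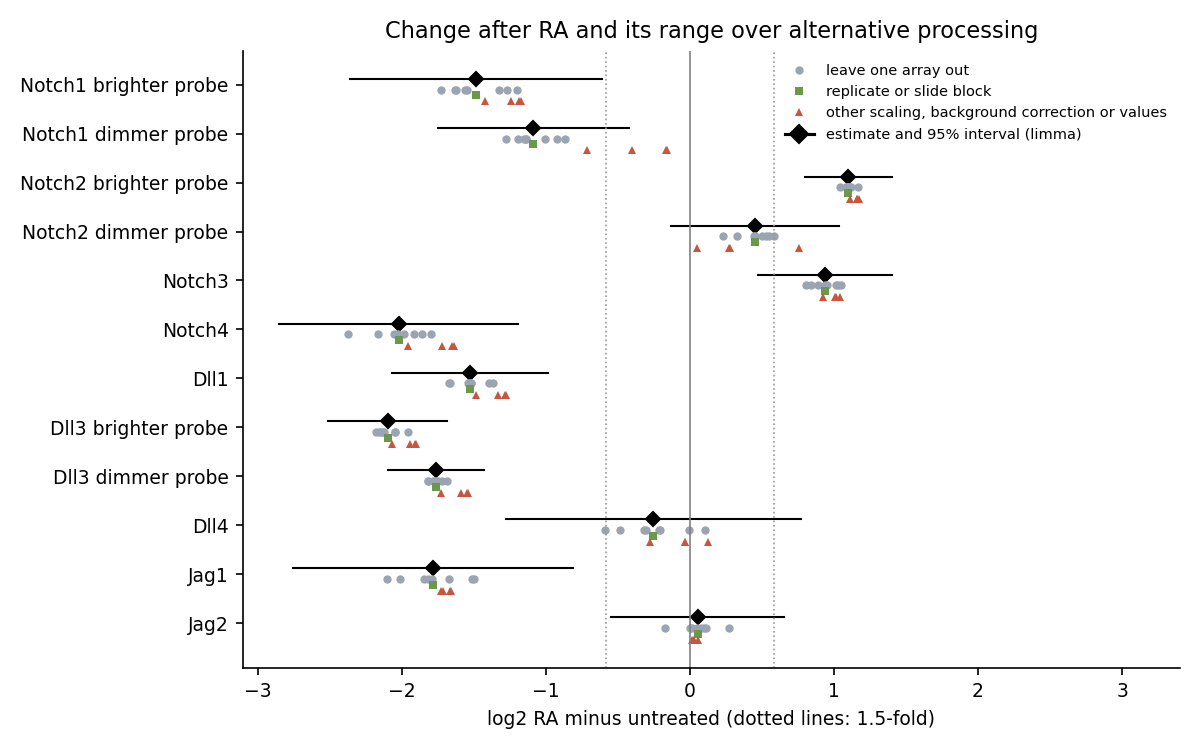
Change after RA (x axis, log2 RA minus untreated) for each of the 12 probes (y axis), as the limma estimate with its 95% interval (black), with each array left out (grey), with the replicate number or slide as a block (green) and under other scalings, background corrections or the authors' processed values (red). All estimates for *Notch2* (brighter probe) and *Notch3* lie right of the 1.5-fold line, from 0.81 for *Notch3* upward, those for *Notch1* (brighter probe), *Notch4*, *Dll1*, *Dll3* and *Jag1* lie left of it, and those for *Dll4* and *Jag2* lie on both sides of 0.

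Whether paralogs changed unequally was tested on the difference of a pair of genes within an array, which does not depend on how arrays are scaled to each other. Over the 6 receptor pairs and the 10 ligand pairs, an exact two-sided permutation test was run on the 70 ways to split 8 arrays into 4 and 4, with Benjamini-Hochberg adjustment over the 16 pairs. The smallest p these splits allow is 0.0286. In 8 pairs the conditions did not overlap and p was 0.0286, which became 0.0571 after adjustment, so that no pair passed 0.05. The 8 include 4 pairs whose separation was already fixed by the levels of the single genes. With normexp background correction, and also on the authors' processed values, 11 pairs had no overlap and an adjusted p of 0.0416 (exact permutation test). The 3 further pairs are pairs with *Dll4*, which was close to background. With 16 pairs tested, the lower adjusted value comes from these 3 also reaching the smallest p. The adjusted value thus depends on which pairs are tested, and an adjustment without the pairs with *Dll4* was not run. These splits ignore the replicate numbers. Swapping conditions only within a number leaves 16 arrangements and a smallest p of 0.125, which 11 pairs reached (adjusted 0.182, exact permutation test), among them all 8 pairs without overlap.

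*Notch2* gained 3.12 on *Notch4* on the log2 scale, or 8.70-fold, and *Notch3* gained 2.96 on *Notch4*. The difference of *Notch1* from *Notch2* moved by -2.59, and its difference from *Notch3* by -2.42. Each of these 4 pairs is made of a receptor whose RA arrays all lay above the untreated arrays and a receptor whose RA arrays all lay below them. Their lack of overlap is therefore fixed by the levels given above and is no further test. Within the rising pair, *Notch2* minus *Notch3* moved by 0.16, from -0.80 ± 0.30 to -0.64 ± 0.09 (SD, n = 4 each, exact permutation p = 0.343). *Notch1* minus *Notch4* moved by 0.53, with an SD of 0.98 before and 0.71 after RA (exact permutation p = 0.457), so a difference between these falls was not resolved.

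Among the ligands, the difference from *Jag2* moved by -2.15 for *Dll3*, by -1.84 for *Jag1* and by -1.58 for *Dll1*, each without overlap (exact permutation p = 0.0286, adjusted 0.0571). *Dll1* minus *Dll3* moved by 0.57 on the brighter *Dll3* probe, without overlap (exact permutation p = 0.0286, adjusted 0.0571). On the dimmer *Dll3* probe it moved by 0.24 with overlap (exact permutation p = 0.4), so a difference between the falls of *Dll1* and *Dll3* depends on the probe. *Jag1* did not separate from *Dll1* (*Dll1* minus *Jag1* 0.26, exact permutation p = 0.571) or from *Dll3* (*Dll3* minus *Jag1* -0.32, exact permutation p = 0.543), and the SD of these differences over the RA arrays was 1.20 and 1.15. The 4 pairs with *Dll4* overlapped, with exact permutation p between 0.0571 and 0.6. Since *Dll4* was well above background on 1 array of each condition, no unequal change is read from these pairs.

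**Figure D3:**
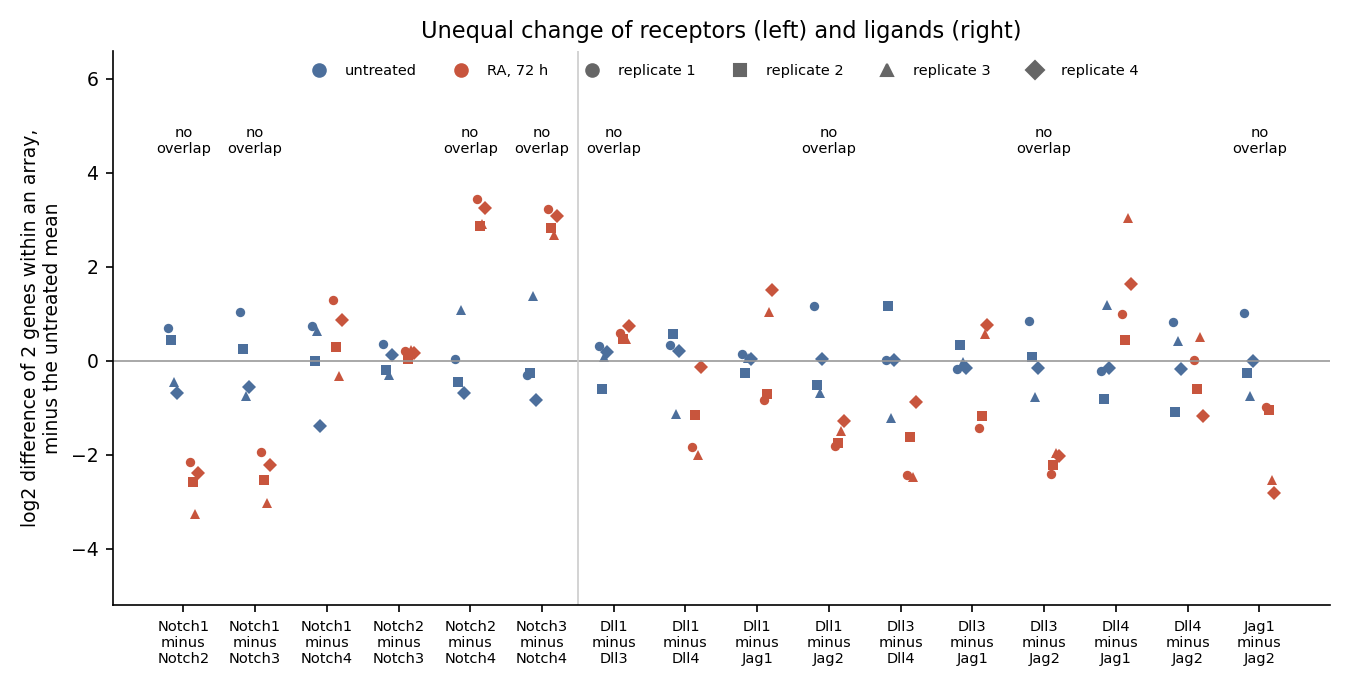
Log2 difference of 2 genes within an array, centred on the untreated mean (y axis), for the 6 receptor pairs (left of the vertical line) and the 10 ligand pairs (right), with a point per array. The conditions do not overlap in 8 of the 16 pairs, and among the 4 pairs of a rising with a falling receptor *Notch1* minus *Notch2* is shifted by -2.59 and *Notch2* minus *Notch4* by 3.12.

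Other genes of the pathway were counted in lists by role. Of the 52 genes found on the array besides receptors and canonical ligands, 13 were called higher, 15 lower and 24 were not called, with a median change of 0.01 against -0.28 for all gene names. Read against the 13.9% and 22.1% called among all gene names, the counts by role follow.

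Receptor cleavage genes were called higher in 5 of 9 and lower in 0, with a median change of 0.81. *Adam10*, the protease of the ligand-dependent cut, read between 0.55 and 0.96 before and between 2.95 and 3.14 after RA, a rise of 2.23 (SE 0.15, limma adjusted p = 1.05e-05). *Furin*, which cuts the receptor during its maturation, rose by 2.00 (SE 0.15, limma adjusted p = 2.18e-05). Of the gamma-secretase subunits, *Aph1b* rose by 2.54, *Ncstn* by 1.07 and *Psen2* by 0.81. *Adam17*, *Psenen* and *Aph1a* were not called, with changes of 0.20, 0.36 and -0.15.

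Of the 5 glycosylation genes, *Pofut1* was called higher and 3 lower. *Pofut1*, which adds the O-fucose that the Fringe enzymes extend, rose by 1.40 (SE 0.18, limma adjusted p = 0.000355), while its other bright probe changed by 0.61 and was not called. All 3 Fringe genes fell, with changes of -2.47 for *Mfng*, -1.69 for *Rfng* and -1.29 for *Lfng* (limma adjusted p = 2.81e-05, 0.000163 and 0.00596). Of these enzymes, *Mfng* and *Lfng* are known to shift a receptor's response from Jagged towards Delta-like ligands. *Mfng* fell on both of its probes, while the other *Rfng* probe changed by -1.03 and was not called (limma adjusted p = 0.0526). *Poglut1*, the O-glucosyltransferase, changed by 0.13 and was not called.

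Among the 12 genes of ligand and receptor trafficking, 3 were called in each direction. *Mib1*, the ubiquitin ligase that makes ligands active by endocytosis, rose by 0.92, and its paralog *Mib2* fell by 1.23. The largest fall was that of *Dtx1*, a Deltex ubiquitin ligase and known Notch target, from between 3.08 and 3.86 to between -0.39 and 0.51, a change of -3.28 or 9.70-fold (SE 0.24, limma adjusted p = 1.94e-05). *Dtx3l* fell by 2.08, and *Dtx4* rose by 1.38. *Itch*, a ubiquitin ligase of the receptor, rose by 0.77. *Numb* and *Numbl*, which antagonize the receptor, changed by 0.31 and 0.23 and were not called.

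In the nuclear complex, 6 of 12 genes were called lower and 1 higher, with a median of -0.94. *Rbpj*, the DNA-binding partner of the cleaved receptor, fell by 1.45 on its brighter probe (SE 0.20, limma adjusted p = 0.000526), while the other bright probe changed by -0.62 and was not called. Of the Mastermind-like co-activators, *Maml3* rose from between -4.64 and -4.04 to between 0.13 and 0.92, by 4.94 or 30.6-fold (SE 0.22, limma adjusted p = 2.21e-06). Its other 2 probes, too dim to be measured on any untreated array, were also called higher. *Maml2* fell by 1.79, and *Maml1* changed by 0.46 and was not called. The corepressors *Spen* and *Cir1* changed by -1.08 and -0.91, the acetyltransferase *Kat2b* by -1.57, and *Nrarp*, a known Notch target and feedback inhibitor, by -1.25, all called lower.

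Of the 6 Hes and Hey repressors, which serve as target readouts of the pathway, 2 were called lower and 0 higher. *Hey1* fell by 1.08 (SE 0.22, limma adjusted p = 0.00437) and *Hes7* fell by 0.68 (SE 0.17, limma adjusted p = 0.0114). *Hes1* read -2.0, -3.36, -2.61 and -3.62 before and -2.16, -2.25, -2.59 and -1.20 after RA, and its change of 0.85 (SE 0.41) was not called (limma adjusted p = 0.139). *Hes5*, with a change of -0.29, was not called. Among 8 other proteins described as Notch ligands, 3 were called higher and 1 lower. *Dlk1*, a Delta-like protein without the motif that activates receptors, read between -0.22 and 0.22 before and 5.44, 4.38, 6.19 and 6.62 after RA, 51.6-fold higher (SE 0.43 on the log2 scale, limma adjusted p = 2.11e-05). *Cntn1* rose by 2.56 and *Dlk2* by 0.90, the latter on 1 of its 2 bright probes. The lower one, *Nov*, was well above background on 2 untreated arrays and on 0 RA arrays, and was at least 1.14-fold lower.

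**Figure D4:**
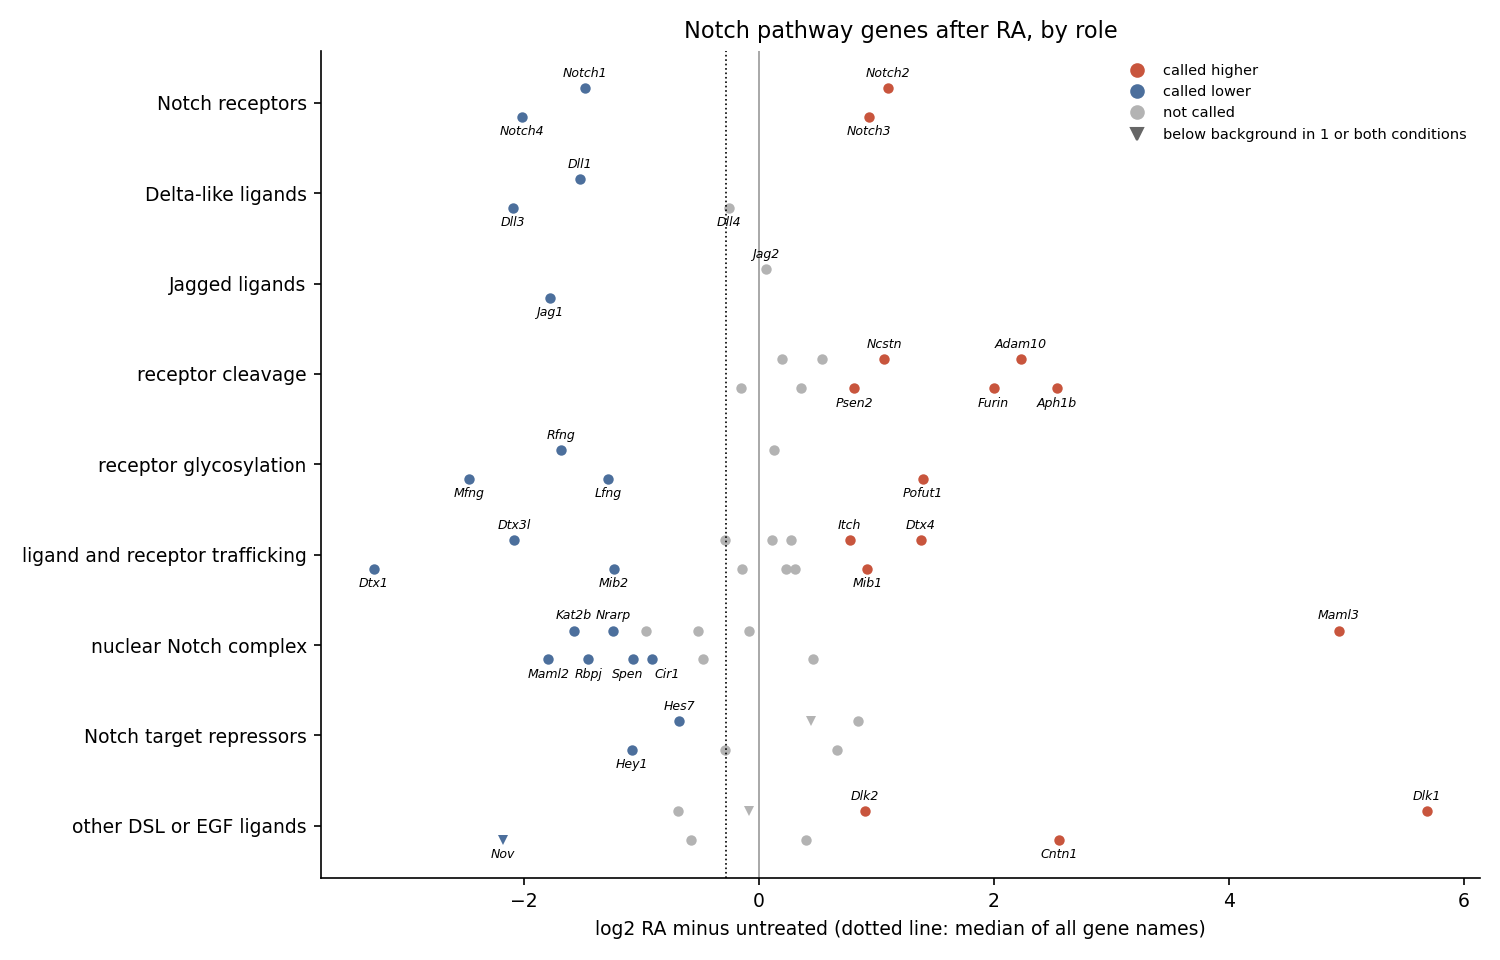
Change after RA (x axis, log2 RA minus untreated) of the 9 Notch genes and the 52 other pathway genes on the array, in rows by role. Red points were called higher, blue lower and grey not called, triangles mark probes below background on all arrays of at least 1 condition, and the dotted line is the median of all gene names at -0.28. Names are given for called genes and for all receptors and ligands. Cleavage genes have 5 red and no blue points, the nuclear complex 6 blue and 1 red.

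Markers of cell types in which Notch genes are known to act are given beside these results. Summed on the linear scale, where 1 is an array's 75th percentile, 7 smooth muscle and mesenchyme markers (such as *Acta2* and *Tagln*) went from between 3.37 and 5.13 to between 258 and 479, with 6 of 7 called higher, beside the rise of *Notch3*. The 8 ES cell markers went from between 280 and 380 to between 10.5 and 34.3. On RA replicates 1 to 4 the smooth muscle sum was 479, 437, 287 and 258. The ES cell sum on these arrays was 16.6, 34.3, 15.0 and 10.5. Both were higher on RA replicates 1 and 2, the arrays with more *Jag1*, than on RA replicates 3 and 4. The ES cell sum differed little between replicates 1 and 3. Of its markers, *Klf4* and *Zfp42* did not split this way, while the others did. The extraembryonic endoderm sum (64.4, 43.1, 39.2 and 38.1, mostly *Lama1*) and the trophoblast sum (127, 92.4, 67.2 and 86.9, mostly *Gcm1*) were also higher on replicates 1 and 2. The endothelial sum was 7.98, 10.3, 3.17 and 3.34, which followed *Flt1*, with log2 values of 2.64, 2.99, 0.47 and 0.33, and no endothelial split is read from it. The sum of the 6 RA response markers split the other way, with 27.9, 25.1, 108 and 73.9 on RA replicates 1 to 4, against at most 4.34 on untreated arrays.

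Of 7 endothelial markers, *Cdh5* and *Emcn* were well above background on no array in either condition. *Pecam1* fell by 2.96, *Tek* fell by 2.90, *Flt1* rose by 4.59 on its brighter probe (the dimmer one was not called), the other 4 were not called, and the list's sum went from between 2.96 and 3.91 to between 3.17 and 10.3, beside the fall of *Notch4*. Of 5 presomitic mesoderm markers, *Mesp2* fell by 2.89 and *Msgn1* was well above background on no array. *Ripply2*, *Tbx6* and the brachyury gene, with changes of -0.47, -0.28 and -0.78, were not called and overlapped between conditions. The sum went from between 1.09 and 1.78 to between 0.41 and 0.47, beside the falls of *Dll1* and *Dll3*, and its fall is mostly that of *Mesp2*. Of 8 neural markers, 2 were called higher (*Nes*, by 2.10, and *Dcx*, at least 5.78-fold) and 2 lower (*Tubb3*, with a change of -2.22, and *Neurod1*, at least 33.4-fold). The other *Dcx* probes were well above background on no array and were not called. The neural sum, whose rise is that of *Nes*, went from between 7.10 and 10.3 to between 10.5 and 11.9. All 6 extraembryonic endoderm markers were called higher, and their sum went from between 7.81 and 22.1 to between 38.1 and 64.4. Of 5 trophoblast markers, 3 were called higher and 2 lower (*Gcm1*, with a change of -0.99, and *Tcfap2c*, with -2.26). The trophoblast sum went from between 117 and 269 to between 67.2 and 127, and is set mostly by that *Gcm1* probe, while the other 3 *Gcm1* probes gave 0.79, -2.49 and -1.05. The part of any of these cell types, ES cells and smooth muscle included, in the Notch results was not tested.

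Gene profiles most like those of the called genes with the largest fitted rise and fall were sought among 12391 genes, by the root mean square difference of the centred log2 values over the 8 arrays. For *Notch2* the nearest were *Pomgnt1* at 0.07, *Flna* at 0.07 and *Ranbp9* at 0.08. For *Dll3* the nearest included *Defb30* at 0.14 and *Slc30a1* at 0.15. Over 2 conditions such likeness takes little more than an equal change and a small spread.

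Promoter sequences of RefSeq on GRCm38.p6, 250 bases before to 50 bases after the start, matched all 9 genes, with 10 windows because *Dll1* has 2 starts. They are shown for *Notch2* and *Dll3*, the genes with the largest rise and the largest fall on their brightest probes, up to the base before the start (*Notch2*, plus strand, chr3:98013288-98013537, and *Dll3*, minus strand, chr7:28301786-28302035, GRCm38.p6), and for *Dll1* as the 30 bases (minus strand, chr17:15375915-15375944, GRCm38.p6) around the only match in the set to AGGTCA, the recognition hexamer of nuclear receptors such as the RA receptors. Capitals mark this match, which begins 109 bases before the start.
Notch2: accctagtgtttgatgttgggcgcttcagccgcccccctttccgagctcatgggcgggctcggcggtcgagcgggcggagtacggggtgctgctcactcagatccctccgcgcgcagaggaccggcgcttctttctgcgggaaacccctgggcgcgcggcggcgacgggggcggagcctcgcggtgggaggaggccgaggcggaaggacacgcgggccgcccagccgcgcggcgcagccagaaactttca
Dll3: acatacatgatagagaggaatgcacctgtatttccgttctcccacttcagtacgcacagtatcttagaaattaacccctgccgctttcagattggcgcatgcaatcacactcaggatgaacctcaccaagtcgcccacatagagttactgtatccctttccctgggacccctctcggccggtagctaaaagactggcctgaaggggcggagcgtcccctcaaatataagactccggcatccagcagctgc
Dll1: tctgaccagggcAGGTCAcgggagagcacc

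On either strand, AGGTCA was found in 1 of the 10 windows and in 16.3% of all 32851 promoter windows of the same length. The core of the *Rbpj* site, TGGGAA, was found in 0 of the 10 windows and in 25.6% of all windows. GC content ranged from 52.0% for *Dll3* to 86.0% for *Jag2*, against a median of 52.7% over all windows. Matches to letters do not show binding, and no match says only that these letters are not in this window.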

How the data were processed

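For each of the 8 arrays the authors deposited a Feature Extraction file (Agilent, version 10.7.3.1), whose intensity values are background-corrected and detrended per spot but not normalized between arrays, and a table of processed log2 values with the same distribution on every array and a median of 6.76, for which no normalization method is named in the sources used here. Flags of the deposited files (a score that is 0 or 1, for signal over background, saturation and outliers) were used as given.

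From the processed intensities, 59305 non-control spots per array were taken and between 124 and 145 outlying spots were left out. Log2 values were set relative to the 75th percentile of the array, spots of a probe were averaged, and a probe counted as well above background on an array when at least 50% of its spots did. RA-treated and untreated arrays (4 each) were fitted in limma (lmFit and eBayes, version 3.58.1, R 4.3.3), with Benjamini-Hochberg adjustment over 55681 probes. The FDR and fold threshold are those of the study's methods. A probe well above background on none of a condition's arrays is given as a bound. The number of arrays limits the precision.

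The 9 genes, the pathway and marker lists and the tests were chosen with earlier results of these data known. All genes of these lists are counted. Some genes of the pathway lists and of the search for like profiles are not reported here by name. Aph1c was listed but is not on the array under its own name. Gene names and mm9 positions come from the array's design. Exon annotation of mm9 was not used here.

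Replicate numbers are shared between conditions in the labels. Over 27493 probes well above background on all arrays, arrays that share a number tended to deviate together from their condition's mean. The correlation r was 0.186, 0.189, 0.104 and 0.151 for numbers 1 to 4, and at most 0.142 between different numbers. Number 3 was thus less alike than some arrays of different numbers (0.142 and 0.13). The printed fit has no replicate block, as the study's methods name none, and the block was run as an alternative. With the block, the limma adjusted p went from 0.000248 to 0.00335 for *Notch2* and from 4.12e-05 to 0.000776 for *Dll3*. Among the called genes, on their brightest probes, it became smaller only for *Notch1*, from 0.0148 to 0.00708. A run of the same steps was tested on simulated data, where 129 of 200 probes changed by a log2 value of 2 were recovered among 55681 and 6 unchanged probes were called. Alternatives were quantile normalization, normexp background correction (offset 50) with either scaling, the authors' processed values, a filter on dim probes, the replicate number or slide as a block, the mean over a gene's probes, a test against 1.5-fold (treat) and leaving out each array. For the paralog pairs, swaps within replicate numbers and the dimmer *Dll3* probe were added after seeing the data.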

Additional observations from a re-analysis of the deposited data

Results flagged for a closer look

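In 118 sets of 4 arrays (a probe in a condition), an array stood apart from the other 3 in 4 sets, where chance alone gives about 5.9. The dimmer *Notch2* probe read -5.22 on untreated replicate 1 and between -4.41 and -4.27 on the other 3 untreated arrays. *Ncstn* read -3.30 on RA replicate 2 and between -3.07 and -3.06 on the other RA arrays. *Mib2* read 2.49 on RA replicate 1 against 2.66 to 2.69. *Itch* read 0.96 on untreated replicate 3 against 1.09 to 1.11. The gap of the last 3 is small beside the change of the gene between conditions.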

How the results depend on the processing

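All called Notch genes kept their direction under every alternative, and 2 were called higher and 5 lower under each alternative in which the called genes were counted except the test against 1.5-fold, which called 1 higher and 3 lower. The mean over a gene's probes was run for *Notch1*, *Notch2* and *Dll3*, which kept their calls. Under the test against 1.5-fold, *Notch1* (adjusted p = 0.11), *Notch3* (0.241) and *Jag1* (0.0595, all from limma's treat) were lost. Fewer are called by construction, since that test asks for a change larger than 1.5-fold. Log2 changes ranged from -1.72 to -1.18 for *Notch1*, 0.78 to 1.18 for *Notch2*, 0.81 to 1.05 for *Notch3*, -2.37 to -1.64 for *Notch4*, -1.67 to -1.28 for *Dll1*, -2.18 to -1.90 for *Dll3* and -2.10 to -1.5 for *Jag1*. The changes of *Dll4* and *Jag2*, which were not called, crossed 0. *Dll4* read 0.13 with quantile normalization and 0.10 without untreated replicate 3, and ranged from -0.59 to 0.10 with each array left out. *Jag2* read -0.17 without untreated replicate 1 and -9.58e-04 without RA replicate 2, and ranged from -0.17 to 0.27. The dimmer *Notch1* probe lost its call with quantile normalization (-0.71), normexp (-0.40), both (-0.17) and on the authors' values (-0.16).

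Over all probes, 7196 were called higher and 12044 lower. Quantile normalization gave 8152 and 8704, normexp 5442 and 8827, both together 6305 and 6603, and the authors' values 6275 and 6583, and the median of all probes was -0.28 against 0.00 with quantile normalization, -0.21 with normexp, and -0.01 with both and on the authors' values. With each array left out, 6549 to 7281 were higher and 10601 to 12676 lower. With the replicate block, 7223 were higher and 12161 lower, and the Notch counts of 2 and 5 did not change. Other pathway genes numbered 12 to 14 higher and 12 to 16 lower over these alternatives. Pairs of paralogs without overlap numbered 8, and 7 to 11 under the alternatives run (8 to 11 with each array left out). No pair had an adjusted p under 0.05, while 11 did with normexp and on the authors' values, counting 3 pairs with *Dll4*, and 0 with the pairing kept by swaps within replicate numbers. *Dll4*, close to background, and the 4 arrays per condition limit what could be seen.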
